A study of Mus musculus with 6 samples.

Results

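The MHC class II presentation genes described here were 7 named genes, H2-Aa, H2-Ab1, H2-Eb1, H2-DMa, H2-DMb1, Cd74 and Ciita. A gene was measured where at least 1 probe set of the array carried its symbol alone, and the probe set with the highest mean over the 6 arrays stood for it. By that rule 6 of the 7 genes were measured, out of 18194 genes in all. H2-DMb1 was not, since the 2 probe sets that carry its symbol also carry that of its neighbour H2-DMb2. The 6 measured genes all passed the floor on low values, which kept the 13587 genes that reached the median of all probe sets on at least 1 array. RNA came from macrophages of the peritoneal cavity, recruited there by an injection of thioglycollate broth. The mice were LysM-Cre+;Akirin2fl/fl, called Akirin2 KO here, or wild-type, both on a C57BL/6 x 129Sv background. LysM-Cre is a Cre recombinase driven by the lysozyme locus, active in myeloid cells, so that other cell types of these mice keep Akirin2. Cells were left without stimulus (0 h) or were given LPS, the lipopolysaccharide of bacterial outer membranes, for 2 or 4 h (100 ng/ml). A single array represents each of the 6 conditions, and neither the age of the mice, nor whether wild-type mice carried Cre or the floxed allele, nor how many animals gave each sample is in the labels.

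MHC class II molecules are pairs of an alpha and a beta chain that carry peptides from the endosomes to the cell surface, where CD4 T cells read them. New pairs are held by the invariant chain, the product of Cd74, until cathepsins trim it, and the DM heterodimer then exchanges the leftover fragment for other peptides. Transcription of all these genes rests on CIITA, a coactivator with no DNA binding of its own that docks on the RFX, CREB and NF-Y factors bound to the X and Y boxes of class II promoters. In macrophages Ciita is best known as a gene switched on by interferon-gamma.

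Akirin2 itself read 5.18, 5.54 and 4.91 in Akirin2 KO at 0, 2 and 4 h, against 7.43, 7.47 and 7.33 in wild-type (log2 expression). The KO arrays thus matched their labels. All differences below are on the log2 scale of these values, on which 1 is 2-fold, and levels of different genes are not compared. The macrophage genes Csf1r and Lyz2 lay between 12.0 and 12.7 on the 6 arrays. With 1 array per condition, tests used limma with LPS time and genotype as additive terms. Its genotype p-value sets the size of a difference against a spread across the 3 times, not the spread between animals. limma drew that spread mostly from all genes (6.35 prior beside 2 residual degrees of freedom). A gene's own steadiness therefore counts for less than the size of its difference. The number of arrays limits the precision. In RNA from a mixed population, fewer cells of a type and less RNA per cell cannot be told apart.

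None of the 3 classical chains passed the test at 2 or 4 h of LPS, and each read lower in Akirin2 KO at every time. H2-Aa, the alpha chain of the I-A molecule, read 10.02, 10.27 and 10.07 in Akirin2 KO at 0, 2 and 4 h, against 10.32, 10.32 and 10.27 in wild-type. The highest KO value, at 2 h, touched the lowest wild-type value, at 4 h, so the groups overlapped. Its LPS effect at 4 h was 0.00022 (95% interval -0.34 to 0.34, adjusted p = 0.999). H2-Ab1, the I-A beta chain, read 10.29, 10.61 and 10.70 in Akirin2 KO, against 10.55, 10.95 and 11.04 in wild-type. It was the one chain that went up in both genotypes at both times, by 0.32 and 0.41 in KO and by 0.40 and 0.49 in wild-type. The effect at 4 h was 0.45 (SE 0.14, 95% interval 0.12 to 0.78) and missed the threshold in limma (adjusted p = 0.0749). H2-Eb1, the beta chain of the I-E molecule, read 8.10, 8.38 and 8.20 in Akirin2 KO, against 8.45, 8.64 and 8.45 in wild-type, and the 3 KO values lay below the 3 wild-type values. Its effect at 4 h was 0.049 (95% interval -0.28 to 0.38, adjusted p = 0.863). The H2-Ab1 rise passed in 4 other settings, with the higher floor (adjusted p = 0.0401), with probe sets averaged (0.0230), without probe sets that may cross-hybridise (0.0179) and with limma's trended, robust variances (6.25e-05), and it missed in the rest, up to an adjusted p of 0.286 without the wild-type 4 h array.

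By genotype the 3 chains differed by similar amounts, and none passed. The mean difference was -0.32 ± 0.044 for H2-Ab1, -0.29 ± 0.056 for H2-Eb1 and -0.18 ± 0.12 for H2-Aa (SD, n = 3 times). The KO level of H2-Ab1 was thus 80.4% ± 2.47 of wild-type, that of H2-Eb1 82.1% ± 3.17 and that of H2-Aa 88.3% ± 7.58. The 95% intervals of the differences were -0.59 to -0.045, -0.56 to -0.013 and -0.46 to 0.098 in the same order, with adjusted p of 0.253, 0.299 and 0.537 in limma. At 2 h of LPS the effects were 0.36 for H2-Ab1, 0.23 for H2-Eb1 and 0.13 for H2-Aa, with adjusted p of 0.206, 0.430 and 0.713.

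**Figure D1:**
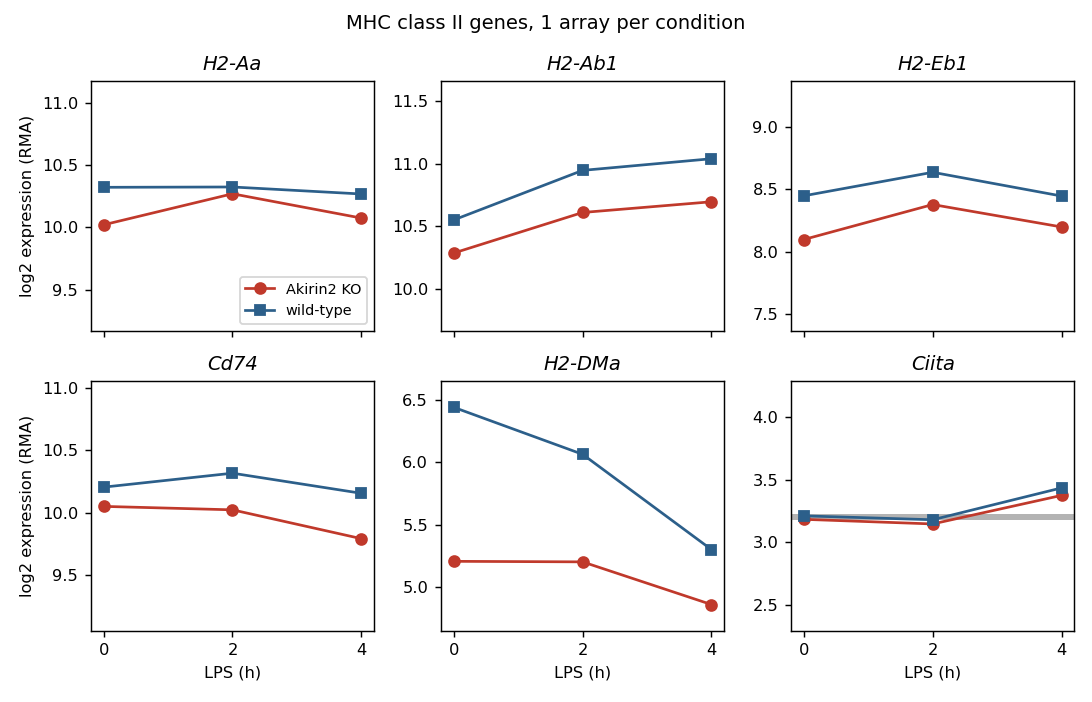
Log2 expression of the 6 measured MHC class II genes (y axis, each panel spanning the same log2 range) at 0, 2 and 4 h of LPS (x axis), 1 array per point, in Akirin2 KO (red circles) and wild-type (blue squares). The KO line lies below the wild-type line in every panel, H2-Ab1 goes up in both genotypes, H2-DMa goes down to 4.86 in KO and 5.30 in wild-type at 4 h, and Ciita stays beside the grey band, the array medians of all probe sets from 3.18 to 3.22.

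The promoters of the chains and of the DM genes are shown because class II promoters are known for a shared arrangement of X and Y boxes. RefSeq's promoter table for GRCm38.p6 held 4 of the 7 genes in 5 windows, each from 250 bases before to 50 after an annotated start. Capitals mark 3 letter strings searched on both strands: ATTGG, the core of the Y box, TGACGTCA, the cyclic AMP response element found in some X2 boxes, and AACTGATGATGCT. The last is the longest run that the H2-Eb1 and H2-DMb1 windows share, so its match there is no finding. No 2 of the strings overlap in the windows. The sequences read 5′ to 3′ along the gene.
H2-Aa (chr17:34287774-34288073, minus strand): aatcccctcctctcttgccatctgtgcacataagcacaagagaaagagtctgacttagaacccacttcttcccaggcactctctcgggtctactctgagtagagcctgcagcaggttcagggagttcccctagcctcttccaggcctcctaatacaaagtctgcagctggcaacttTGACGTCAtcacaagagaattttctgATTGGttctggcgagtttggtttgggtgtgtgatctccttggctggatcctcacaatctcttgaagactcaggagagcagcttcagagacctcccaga
H2-Eb1 (chr17:34305617-34305916, plus strand): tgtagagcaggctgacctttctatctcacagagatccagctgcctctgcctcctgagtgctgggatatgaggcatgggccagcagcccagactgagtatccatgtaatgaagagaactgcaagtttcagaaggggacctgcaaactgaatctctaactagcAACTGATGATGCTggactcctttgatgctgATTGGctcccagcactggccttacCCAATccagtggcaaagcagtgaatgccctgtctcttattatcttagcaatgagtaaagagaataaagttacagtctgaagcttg
H2-DMb1 (chr17:34152941-34153240, plus strand): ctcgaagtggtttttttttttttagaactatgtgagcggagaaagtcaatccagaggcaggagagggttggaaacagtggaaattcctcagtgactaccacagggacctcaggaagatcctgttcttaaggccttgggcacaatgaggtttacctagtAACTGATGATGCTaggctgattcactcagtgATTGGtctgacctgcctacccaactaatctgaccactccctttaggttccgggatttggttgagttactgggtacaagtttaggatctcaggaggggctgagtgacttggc
H2-DMa, start 1 (chr17:34122582-34122881, plus strand): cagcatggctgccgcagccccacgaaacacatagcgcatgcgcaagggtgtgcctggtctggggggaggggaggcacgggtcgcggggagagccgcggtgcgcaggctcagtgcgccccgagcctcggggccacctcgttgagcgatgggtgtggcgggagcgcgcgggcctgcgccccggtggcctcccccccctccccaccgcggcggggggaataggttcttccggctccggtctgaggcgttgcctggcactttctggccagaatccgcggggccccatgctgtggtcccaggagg
H2-DMa, start 2 (chr17:34125268-34125567, plus strand): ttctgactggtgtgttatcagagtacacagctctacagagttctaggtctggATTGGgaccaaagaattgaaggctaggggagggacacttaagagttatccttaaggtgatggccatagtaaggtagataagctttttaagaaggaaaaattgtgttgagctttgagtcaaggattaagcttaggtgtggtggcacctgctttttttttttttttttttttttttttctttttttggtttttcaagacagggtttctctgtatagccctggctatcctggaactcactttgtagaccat
In H2-Aa the response element began at position -74 and ATTGG at -48, counted from the start, 26 bases apart. In H2-Eb1 AACTGATGATGCT began at -89 and ATTGG at -59, 30 bases apart, and in H2-DMb1 they began at -92 and -61, 31 bases apart. H2-Eb1 also held ATTGG on the other strand at -35. The first H2-DMa window held none of the strings, and the second held ATTGG alone, at -198. Of 32851 promoter windows, 37.4% held ATTGG, 1.79% held TGACGTCA and 0.00913% (3 windows) held AACTGATGATGCT. Those 3 windows were of H2-Eb1 and H2-DMb1, which defined the string, and of Slc39a10, so that share is no background rate. The match is of letters and does not show binding.

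Cd74, the invariant chain gene, read 10.05, 10.02 and 9.79 in Akirin2 KO at 0, 2 and 4 h, against 10.20, 10.32 and 10.15 in wild-type. All 3 KO arrays lay below all 3 wild-type arrays. The difference widened over the times, with -0.15 before LPS, -0.29 after 2 h and -0.36 after 4 h, and the mean difference was -0.27 ± 0.11 (SD, n = 3 times), or 83.1% ± 6.20 of wild-type. In limma it did not pass (95% interval -0.55 to 0.0079, adjusted p = 0.339). Nor did the change of the difference with stimulation, at -0.17 in the genotype by stimulation test (95% interval -0.71 to 0.36). LPS moved Cd74 by -0.15 at 4 h over both genotypes (95% interval -0.49 to 0.19, adjusted p = 0.563).

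H2-DMa, the alpha chain of the peptide-exchange factor DM, fell both with LPS and in Akirin2 KO, and was the only measured member called in either comparison. limma called 15.4% of all genes at 4 h against 0 h, 7.61% as lower, and 1.95% for genotype, 1.06% as lower. It read 5.21, 5.20 and 4.86 in Akirin2 KO at 0, 2 and 4 h, against 6.44, 6.06 and 5.30 in wild-type. Every KO value lay below every wild-type value, and the wild-type values dropped at each time while the KO values moved only at 4 h. The KO level was 42.5% of wild-type at 0 h, 55.0% at 2 h and 73.7% at 4 h, so the genotypes drew closer during stimulation. In limma the genotype difference was -0.85 (SE 0.16, 95% interval -1.22 to -0.47, adjusted p = 0.0410) and the LPS effect at 4 h was -0.74 (SE 0.20, adjusted p = 0.0389). At 4 h the level was 78.7% of the 0 h level in KO and 45.4% in wild-type. The test of this difference in response, genotype by stimulation, gave 0.58 (95% interval 0.00014 to 1.17) and did not pass (adjusted p = 0.390).

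Both 2-fold differences of H2-DMa, KO against wild-type at 0 h (-1.23) and 4 h against 0 h in wild-type (-1.14), used the same wild-type 0 h array. Without it the LPS effect at 4 h was -0.45 (adjusted p = 0.174 in limma), while the genotype difference was -0.65 (adjusted p = 0.0309). Without the wild-type 4 h array the LPS effect was -0.44 (adjusted p = 0.300), and with probe sets averaged -0.73 (adjusted p = 0.0523). The genotype call was lost without either 2 h array (-0.84, adjusted p = 0.0834), with no floor (adjusted p = 0.0532), with the higher floor (0.0598), with arrays centred (0.0540) and with probe sets averaged (-0.55, adjusted p = 0.182). The other H2-DMa probe set, near the array median, read 3.25, 3.47 and 3.02 in Akirin2 KO, against 4.10, 3.48 and 2.89 in wild-type. It showed the KO reduction at 0 h but not at 2 or 4 h, and a mean LPS change of -0.72 at 4 h.

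H2-DMb1 was covered only by probe sets that cannot separate it from H2-DMb2, so no value is given to it. Those 2 probe sets read between 3.16 and 4.00 in Akirin2 KO and between 3.36 and 4.36 in wild-type. Each was lower in KO at every time, with mean differences of -0.37 and -0.47. On each the highest KO value at least reached the lowest wild-type value. H2-DMb2, the other DM beta gene, has probe sets of its own and read 6.92, 6.46 and 5.78 in Akirin2 KO, against 7.002, 6.60 and 6.47 in wild-type. It fell at 4 h of LPS by 0.84 (SE 0.18, adjusted p = 0.0173 in limma), the same way as H2-DMa. Its steepest drop was on the KO 4 h array, without which the effect was -0.55 (adjusted p = 0.123), and it was -0.48 with probe sets averaged (adjusted p = 0.0513) and -0.81 with arrays centred (adjusted p = 0.0571). The genotype difference of H2-DMb2 did not pass (adjusted p = 0.381).

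Ciita, the master coactivator gene, stayed near the array medians of 3.18 to 3.22 on all arrays. It read 3.18, 3.15 and 3.38 in Akirin2 KO at 0, 2 and 4 h, against 3.21, 3.18 and 3.44 in wild-type. The 4 h arrays were the highest in both genotypes. The effect at 4 h was 0.21 (SE 0.14, 95% interval -0.12 to 0.54, adjusted p = 0.402 in limma) and the genotype difference -0.040 (95% interval -0.31 to 0.23, adjusted p = 0.905). Its other 2 probe sets lay between 2.80 and 3.11 and moved by -0.0099 and 0.023 at 4 h, and both averaged slightly higher in KO, by 0.11 and 0.024. A transcript near the median of all probe sets is close to what the array can detect, so a change of Ciita below that level was not detectable here.

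Over the 6 measured members, limma called 0 at 2 h of LPS against 0 h, where it called 6.85% of all genes, and 1, H2-DMa, at 4 h (15.4% of all genes). Between 4 h and 2 h it called 0 members and 2.67% of all genes. At an unadjusted p under 0.05, H2-Ab1 counted at 2 h, H2-Ab1 and H2-DMa at 4 h, and H2-DMa between 4 h and 2 h, and for genotype H2-Ab1, H2-Eb1 and H2-DMa. The members' median LPS effect was 0.084 at 2 h and 0.025 at 4 h, beside medians of -0.042 and -0.026 over all genes. These shares of members are near or below the background, so LPS calls do not set the members apart. For genotype limma called 1 of the 6 members and 1.95% of all genes, and the members' median difference was -0.28, beside -0.011 over all genes. All 6 members were lower in KO at each of the 3 times, a pattern held by 20.4% of all genes. Ciita was lower by at most 0.060, on the probe set used alone. For 3 members (H2-Eb1, H2-DMa and Cd74) all KO arrays lay below all wild-type arrays, as for 6.2% of all genes. The genotype by stimulation test called 0 members and 0.0294% of all genes, and H2-DMa alone came under an unadjusted p of 0.05. Of the single-array comparisons, 1 member was 2-fold lower in KO at 0 h, beside 1.93% of all genes 2-fold apart, and 0 at 2 h (0.949%) and 4 h (1.45%). Between LPS and 0 h, 0 members were 2-fold apart in KO at 2 h (3.35% of all genes) and 4 h (6.54%), and in wild-type 0 at 2 h (4.45%) and 1 at 4 h (8.47%).

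The size of the KO difference could be set beside the other probe sets of the same genes. For H2-Ab1 the mean difference was -0.32 on the probe set used and -0.53 and -0.47 on the other 2, and each of the 3 read lower in KO at every time. For H2-Aa it was -0.18 on the probe set used and -0.063, -0.25 and -0.13 on the others, the last a probe set near the array median whose sign changed between times. The 3 H2-Ab1 probe sets also shared the LPS rise, with mean changes of 0.45, 0.66 and 0.45 at 4 h. The probe sets used for H2-Aa and H2-Ab1 carry the suffixes _x_at and _s_at, which mark probes that can also match related transcripts.

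**Figure D2:**
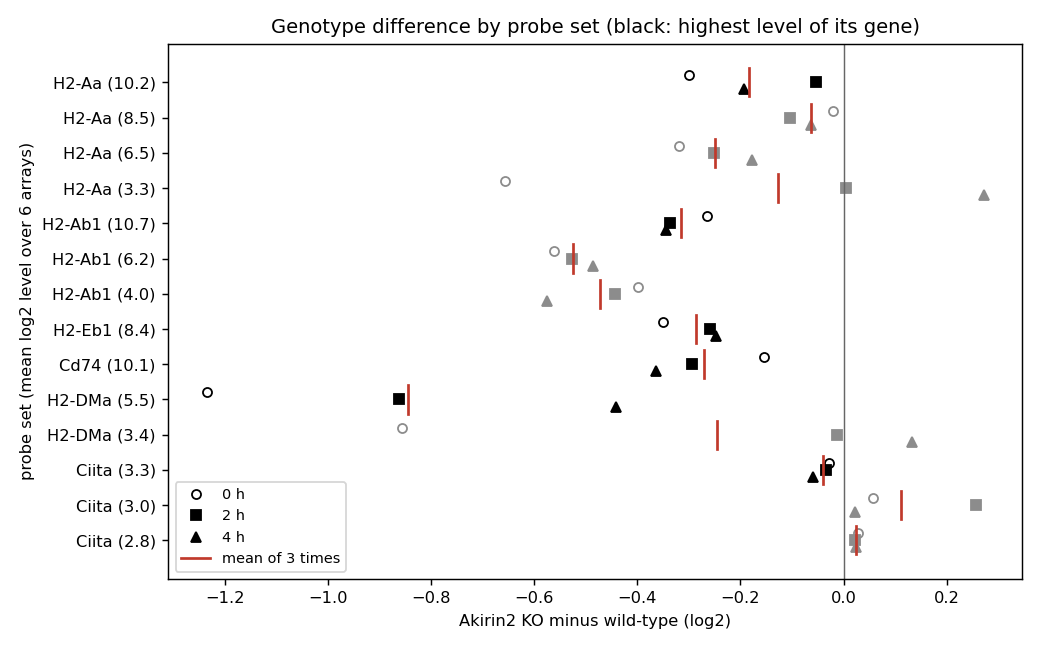
Akirin2 KO minus wild-type (x axis, log2) at 0, 2 and 4 h for each probe set that carries the symbol of 1 member (y axis, mean log2 level in brackets); black marks the probe set used for its gene and the red line the mean of the 3 times. H2-Ab1 lies left of 0 on all its probe sets, H2-DMa reaches -1.23 at 0 h and -0.44 at 4 h, and the Ciita probe set used lies beside 0.

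Measures of RNA quality and of other cells stand beside these differences. The 3′ to 5′ difference of the Actb control probe sets, a sign of RNA quality, was 4.64, 4.50 and 4.36 in Akirin2 KO and 4.22, 4.16 and 4.09 in wild-type. For Actb every KO array lay above every wild-type array. The same difference for Gapdh was 4.34, 4.52 and 4.44 in Akirin2 KO and 4.33, 4.33 and 4.42 in wild-type, so it overlapped between the genotypes. The mean of the bioB and bioC array control probe sets was 10.89 on the KO 0 h array and 10.12 to 10.47 on the rest. Of 9 measured macrophage markers 1 fell in KO, Fcgr1, and 0 rose, and the log2 of their summed level was 14.2 to 14.3 in KO and 14.3 to 14.4 in wild-type. Markers of class II-high peritoneal macrophages and monocytes (9 of 11 measured) summed to 11.3 to 11.4 in KO and 11.7 to 11.8 in wild-type. Of these Folr2 fell, while Itgax, Irf4 and Cd226 averaged higher in KO (0.45, 0.66 and 0.23) and the rest lower. Those of large peritoneal macrophages (9 of 9 measured) summed to 9.92 to 10.2 and 10.5 to 10.7. Of these Cxcl13 fell (-1.27), while F5 and Alox15 averaged higher in KO (0.077 and 0.34) and the rest lower. A sum is weighted to genes with high values, here Fn1 on all arrays and Cxcl13 on the wild-type arrays. Mesothelial and fibroblast markers (11 of 11 measured) summed to 8.89 to 9.13 in KO and 9.55 to 9.66 in wild-type. Of these Col1a2 fell, while Upk3b, Lum and Gpm6a averaged higher in KO (0.14, 0.16 and 0.061) and the rest lower. For genotype limma called 1.95% of all genes. The part of these shifts in the class II differences was not tested.

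Markers of other cells with class II were also measured. Of 10 measured dendritic cell markers, 5 (Flt3, Cd209a, Xcr1, Ccr7 and Siglech) lay below the array median on all 6 arrays, 2 above it on all, and 0 of 10 above the 75th percentile on all, with log2 sums of 6.61 to 6.64 in KO and 6.50 to 6.74 in wild-type. Of 11 measured B cell markers, 6 lay above the median on all arrays (Cd22, Ighm, Ms4a1, Cd79a, Blk and Ebf1), of which Cd22 and Ighm lay above the 75th percentile on all, and 2 (Pax5 and Fcer2a) lay below the median on all. The B cell sums were 7.64 to 8.18 in KO and 7.65 to 7.997 in wild-type, so the genotypes overlapped. In both lists limma called 0 markers for genotype, and 0 came under an unadjusted p of 0.05. T and NK cell markers, of which 7 of 10 were measured, summed to 6.07 to 6.40 in KO and 6.09 to 6.12 in wild-type, and Cd28 rose in KO. Eosinophil and neutrophil markers (11 of 13 measured) summed to 8.61 to 9.24 in KO and 8.53 to 9.41 in wild-type, with 0 calls for genotype in limma and 0 under an unadjusted p of 0.05.

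Along chromosome 17 the class II genes are neighbours, with genes of the class I pathway among them. Between H2-Oa and H2-Ea RefSeq lists 15 genes, of which 14 were measured. This stretch was chosen after the values were seen. Tap1, which encodes a peptide transporter subunit, rose by 1.48 at 4 h of LPS (SE 0.16, adjusted p = 0.000472 in limma), and the immunoproteasome genes Psmb8 and Psmb9 by 1.02 and 0.67. They lie between H2-DMa and H2-DMb2, which fell, and the classical chains, none of which passed. H2-DMb1, beside H2-DMb2, was not measured. Tap2, beside Psmb8, moved by 0.41 at 4 h and Brd2, beside H2-DMa, by 0.78, and neither passed in limma (adjusted p = 0.159 and 0.0615). Tap1 moved by 0.25 with its probe sets averaged (adjusted p = 0.252), and Psmb9 missed the threshold with arrays centred (0.70, adjusted p = 0.0643) and without the KO 0 h (0.65, adjusted p = 0.0628), wild-type 0 h (0.69, adjusted p = 0.0565) or wild-type 4 h array (0.44, adjusted p = 0.295). H2-Oa and H2-Ob, the chains of the DM inhibitor DO, read 3.07 to 3.39 and 3.76 to 3.94 in KO and 3.46 to 3.84 and 3.83 to 3.87 in wild-type. H2-Ea, the I-E alpha gene that C57BL/6 mice do not express because its promoter is deleted, stayed between 2.80 and 3.22 on all arrays.

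**Figure D3:**
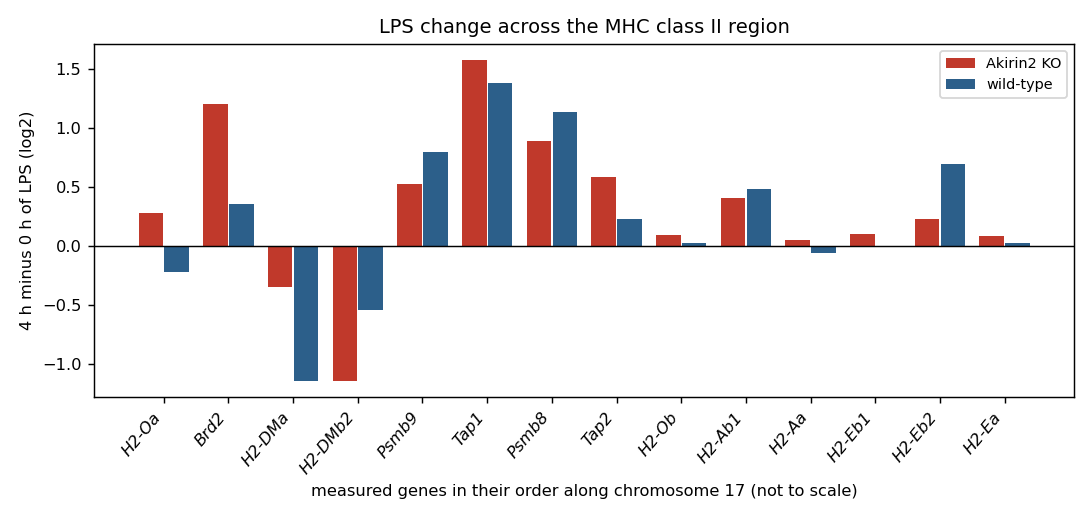
Log2 change from 0 to 4 h of LPS (y axis, bars from 0) for the 14 measured genes from H2-Oa to H2-Ea in their order on chromosome 17 (x axis, not to scale), in Akirin2 KO (red) and wild-type (blue), 1 array per condition. H2-DMa and H2-DMb2 point down, Psmb9, Tap1 and Psmb8 point up in both genotypes, and H2-Aa and H2-Eb1 stay close to 0. Brd2, Tap2, H2-Ab1 and H2-Eb2 also point up in both genotypes.

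The class I pathway list took another course under LPS. Of its 14 measured genes 0 passed limma's test at 2 h (1 at an unadjusted p under 0.05), beside 6.85% of all genes. The list median at 4 h was 0.45, beside 0.025 for the class II members. At 4 h 6 rose and 0 fell, where 15.4% of all genes were called. The 6 were Tap1, Psmb8, Psmb9, the third immunoproteasome subunit Psmb10 (1.20, adjusted p = 0.000893), the tapasin gene Tapbp (0.88, adjusted p = 0.00423) and Nlrc5. Nlrc5, the coactivator of class I genes and a relative of CIITA, read 7.60, 7.39 and 8.61 in Akirin2 KO at 0, 2 and 4 h, against 7.49, 7.20 and 9.39 in wild-type. It rose at 4 h, by 1.46 over both genotypes (SE 0.24, adjusted p = 0.00394). The heavy chain genes H2-K1 and H2-D1 moved by at most 0.16 with LPS in either genotype. For genotype 0 of the 14 passed (6 at an unadjusted p under 0.05), beside 1.95% of all genes. The list median was -0.25, close to the -0.28 of the class II members. The difference between the 2 sets was not tested. With probe sets averaged 4 of the 14 rose at 4 h, and Tapbp was then at 0.44 (adjusted p = 0.0633).

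Factors known to act on Ciita changed with LPS and Ciita itself did not pass. Of 18 regulators above the floor, 5 rose and 1 fell at 2 h, where limma called 6.85% of all genes. At 4 h 6 rose and 1 fell, where it called 15.4%, all at an adjusted p under 0.05. For genotype 2 of the 18 were called, beside 1.95% of all genes. Irf1, which acts on the interferon-inducible Ciita promoter, read 4.89, 7.18 and 7.36 in Akirin2 KO at 0, 2 and 4 h, against 5.49, 8.04 and 8.36 in wild-type. It rose by 2.67 at 4 h (SE 0.16, adjusted p = 2.76e-05) and was lower in KO by a mean of 0.82 in size (SE 0.13, adjusted p = 0.0218). Without either 2 h array the genotype difference was -0.80 (adjusted p = 0.0748), and with arrays centred -0.80 (adjusted p = 0.0792). The kinase gene Jak2 rose by 2.06 at 4 h (adjusted p = 6.01e-05), and Prdm1, a repressor of Ciita, by 1.12 (adjusted p = 0.00124). Bcl6 was called higher at 2 h, with 0.86 in KO and 0.85 in wild-type, and lower at 4 h than at 2 h. Irf8, a transcription factor of the myeloid lineage, fell by 2.15 at 2 h (adjusted p = 0.00251) and by 1.54 at 4 h (adjusted p = 0.00642). Kdm6b, a histone demethylase gene counted among those that rose, moved by -0.0085 at 2 h without its probe set that may cross-hybridise (adjusted p = 0.987). Ifng, the gene of interferon-gamma, lay between 2.78 and 3.07 on all arrays and did not reach the floor. Besides Irf1, only Tgfb1 passed for genotype among the 18 (-0.66, adjusted p = 0.0379), a call lost with probe sets averaged (-0.41, adjusted p = 0.105), with arrays centred (-0.64, adjusted p = 0.0727) or without a 2 h (-0.73, adjusted p = 0.0959) or 4 h array (-0.64, adjusted p = 0.0757).

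**Figure D4:**
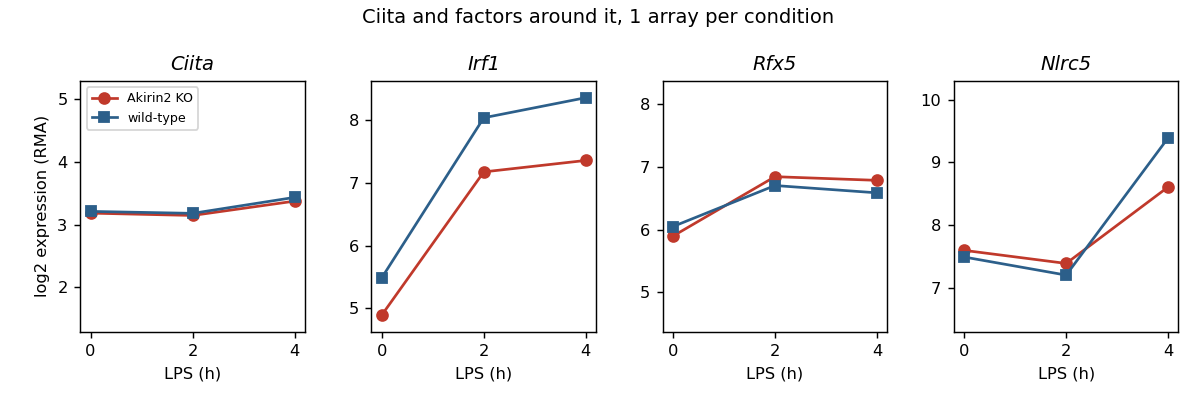
Log2 expression (y axis, each panel spanning the same log2 range) of Ciita, its activator Irf1, the X box factor Rfx5 and the class I coactivator Nlrc5 at 0, 2 and 4 h of LPS (x axis), 1 array per point, in Akirin2 KO (red circles) and wild-type (blue squares). Irf1 climbs to 7.36 in KO and 8.36 in wild-type at 4 h and Nlrc5 to 8.61 and 9.39, while Ciita ends at 3.38 and 3.44.

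Of 9 class II promoter factors, 2 rose at 2 h, where limma called 6.85% of all genes. At 4 h 1 rose, where it called 15.4%. For genotype 0 passed (1 at an unadjusted p under 0.05), beside 1.95% of all genes. Creb1 passed at 2 h only, with a rise of 0.46 in KO and 0.84 in wild-type. Of the 2 calls at 2 h, only 1 was kept with probe sets averaged, with quantile normalization repeated or with arrays centred. Rfx5, the DNA-binding subunit of RFX, read 5.90, 6.84 and 6.79 in Akirin2 KO at 0, 2 and 4 h, against 6.05, 6.70 and 6.59 in wild-type. It rose by 0.80 at 2 h (SE 0.16, adjusted p = 0.0205 in limma) and 0.71 at 4 h (adjusted p = 0.0177). The 2 h call was lost without the KO 2 h (0.74, adjusted p = 0.188) or wild-type 2 h array (0.86, adjusted p = 0.120), and the 4 h call without the KO 0 h (0.55, adjusted p = 0.0620) or KO 4 h array (0.61, adjusted p = 0.0958).

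Of 11 measured processing and turnover genes, 1 fell at 2 h, where 6.85% of all genes were called. At 4 h 1 rose and 2 fell, where 15.4% were called. For genotype 0 passed (4 at an unadjusted p under 0.05), beside 1.95% of all genes. Ctss, the cathepsin that trims the invariant chain, lay between 12.7 and 12.8 on all arrays. Lgmn, an endosomal protease gene, read 6.38, 6.39 and 5.86 in Akirin2 KO at 0, 2 and 4 h, against 7.19, 7.04 and 6.18 in wild-type. It fell by 0.76 at 4 h (SE 0.17, adjusted p = 0.0175 in limma), a call lost without the wild-type 0 h (-0.60, adjusted p = 0.0621) or 4 h array (-0.56, adjusted p = 0.147). Marchf1, the ubiquitin ligase that sends surface class II to lysosomes, read 5.83, 4.87 and 6.35 in Akirin2 KO, against 6.29, 5.43 and 6.77 in wild-type. It dipped at 2 h by 0.91 (adjusted p = 0.00783) and was 1.41 higher at 4 h than at 2 h (adjusted p = 0.00351). Its 2 h call was lost without the KO 2 h (-0.86, adjusted p = 0.0955) or wild-type 2 h array (-0.96, adjusted p = 0.0590). Ifi30, a lysosomal thiol reductase gene, fell by 0.55 at 4 h (adjusted p = 0.0463) and Cd82, a tetraspanin gene, rose by 0.87 (adjusted p = 0.00442). The Ifi30 call was lost with arrays centred (-0.51, adjusted p = 0.0571) and without any array but KO 0 h, down to -0.42 without the wild-type 4 h array (adjusted p = 0.304).

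Over the 6 arrays the members followed each other to unequal degrees. Pearson's r, given as a description over 6 arrays that share normalization, was 0.936 between H2-Aa and H2-Eb1, 0.581 between H2-Aa and H2-Ab1, and 0.814 between H2-DMa and Cd74. Ciita correlated with H2-Ab1 at 0.537 and with H2-DMa, Cd74, H2-Aa and H2-Eb1 at -0.396, -0.333, -0.155 and -0.101. Among 2239 other genes with a range of at least 1, those most like the members' mean profile were Tfrc (r = 0.991), Mmp23 (0.973), Akirin2 (0.970), Zdhhc3 (0.965) and Meis2 (0.961). Each read lower on all KO arrays than on any wild-type array. They were chosen for likeness to a profile that is lower in KO, so this is no separate finding. The 3 classical chains alone were most like Il1r1 (0.986), Mt2 (0.981), Opa3 (0.980), Aplp1 (0.975) and C5ar1 (0.970). Ciita was most like Lgals3bp (0.993), Zbp1 (0.990), Slco3a1 (0.990), Oas2 (0.990) and Mfap3l (0.989). These were higher at 4 h in both genotypes, Zbp1 at 6.20 in KO and 7.16 in wild-type against 4.00 and 4.35 at 0 h. That too follows from the choice, since Ciita was itself highest at 4 h, over a range of only 0.29 near the array medians.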

How the data were processed

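The authors deposited 1 log2 expression value per probe set and array. The submitters' processing notes name RMA, with no version. RMA normalizes arrays by quantiles, so a change shared by most genes is not seen. Of 45101 probe sets, 34958 carried 1 gene symbol, 932 several and 9211 none in the platform annotation supplied, and 34754 of the first matched a RefSeq gene by number. From these values each of 18194 genes was given its probe set with the highest mean. limma 3.58.1 in R 4.3.3 (lmFit, eBayes, Benjamini-Hochberg over the 13587 genes above the floor, threshold 0.05) fitted LPS time and genotype (2 residual degrees of freedom) and, separately, genotype by stimulation (1). Single arrays were compared by a 2-fold rule. The fits were tested on simulated data. Alternatives changed the floor, probe set choice, scaling, variance model and arrays. The members and gene lists were chosen with earlier results of these data known. Named are the 7 members, label checks, listed pathway genes past the threshold (at most 6 per list and contrast), Ifng, Irf1, Nlrc5, Ctss and Rfx5, and the 5 genes most like a profile. The files name no genome build, so probe sets have no coordinates here.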

Additional observations from a re-analysis of the deposited data

Results flagged for a closer look

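Among 63 genes of the class II, class I and regulator lists above the floor, 4 moved in opposite directions with LPS in the 2 genotypes on both LPS arrays. The share of all genes that did so was not counted, so the 4 cannot be set against a background. Irf4, a transcription factor gene of lymphoid and some myeloid cells, read 4.70, 5.74 and 5.27 in Akirin2 KO at 0, 2 and 4 h, against 5.19, 4.75 and 3.80 in wild-type. Its response at 4 h was 1.96 higher in KO, and the genotype by stimulation test in limma gave 1.72 (adjusted p = 0.0516). Rfxap, an RFX subunit gene, had a response 0.65 higher in KO (adjusted p = 0.502), Il10ra, an interleukin-10 receptor gene, 0.54 higher (adjusted p = 0.411) and Pdia3, a chaperone gene of class I loading, 0.69 higher (adjusted p = 0.303). Some of these moves were close to 0. In wild-type at 2 h Rfxap moved by -0.035 and Il10ra by -0.025, and in KO at 4 h Pdia3 moved by 0.0040. In all 4 genes the KO array was the lower one at 0 h, and every KO response was counted from that array. The 4 genes were named after their values were seen.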

How the results depend on the processing

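With 1 array per condition no spread between animals is known, and signal near background limits Ciita. Ciita is left out by the higher floor and by averaging, H2-Aa by dropping cross-hybridising probe sets. Another processing changed few directions but many calls, and the cause was not tested. For genotype, 1 of 6 members was called, against 0 with no floor, the higher floor, probe sets averaged, arrays centred or without the 2 h arrays, 3 (H2-DMa, H2-Ab1 and Cd74) with trended, robust variances, and 0 to 1 leaving out each array, an alternative added after seeing the data. At 4 h 1 member was called, against 2 with the higher floor, without probe sets that may cross-hybridise or with trended, robust variances, and 0 to 1 leaving out each array. At 2 h 0 were called, 1 with trended, robust variances, and 0 leaving out each array. Of single-array differences past 2-fold there were 2, and 1 with arrays centred. The share of all genes called for genotype, 1.95%, ranged from 1.05% with arrays centred to 6.5% with trended, robust variances, which gave 12.3% at 2 h, beside 6.85%. The higher floor gave 13.2% at 2 h and 29.3% at 4 h, beside 15.4%. Between 4 h and 2 h the share was 2.67%, 1.02% without the wild-type 2 h array and 6.8% without the 0 h arrays. At 2 h 538 genes were higher and 393 lower, 541 and 254 with arrays centred, and 579 and 969 without the KO 0 h array, and leaving out each array the share called ran from 3.05% to 11.4%. For the interaction 4 genes passed, but with quantile normalization repeated 20 higher and 42 lower, 155 and 101 with trended, robust variances, and 0 with no floor, the higher floor, arrays centred or no cross-hybridising probe sets. Centring moved the median interaction of all genes to -0.11, beside 0.10. Effects near 0 changed sign. With quantile normalization again, Cd74 at 2 h was -0.0097, H2-Aa at 4 h -0.029, H2-Eb1 at 4 h -0.0027 and the Ciita interaction 0.017. With arrays centred, Ciita at 2 h was 0.033 and the interactions of H2-Aa and H2-Eb1 -0.037 and -0.12. H2-Aa at 4 h was -0.045 with probe sets averaged, and the H2-Ab1 interaction 0.055 without cross-hybridising probe sets. Leaving out each array, H2-Aa at 4 h ran from -0.088 to 0.089, Cd74 at 2 h from -0.045 to 0.13 and H2-DMa at 2 h from -0.48 to 0.10. All 6 genotype differences kept their sign in every setting that measured them. Most settings could not change it. Each difference was negative at every time, so leaving out arrays keeps the sign, and the floor and variance model do not alter the estimate. For Ciita the genotype difference was only -0.040, near background, and its other 2 probe sets averaged higher in KO (0.11 and 0.024). No paired analysis was possible because the labels give no replicate numbers and each condition has 1 array.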
